A study of Homo sapiens with 1536 samples.

Results

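BT-20, an established breast cancer line, was grown in the same wells as ZR-75-1, SKBR3, HCC-38 and MDA-MB-231 in a pooled compound screen, and its response to each compound was set against the mean of the other 4 lines. The values were relative cell numbers for all but 8 of the 180 compounds, from all but 160 of the 1536 wells of the series, the latter including the 96 DMSO wells. Ruxolitinib and STF083010 were left out by the rule that chose the compounds, and 6 more (ABT199, Belinostat, BMS345541, Dexamethasone, Fingolimod and RacRotigotine), whose wells held few reads of BT-20, have no relative cell numbers. For each compound and replicate the mean over 10 sgRNAs was taken. The area under the dose curve (AUC) was the sum of these means over the 4 doses, the lowest and highest dose counting 0.5 each and those between counting 1 each. The AUC of untreated cells is 300, and a lower AUC means fewer cells.

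BT-20 comes from a triple-negative breast tumour, which lacks the estrogen and progesterone receptors and HER2 amplification, and is known for amplification of EGFR, the receptor of epidermal growth factor. HCC-38 and MDA-MB-231 are also triple-negative, ZR-75-1 expresses the estrogen receptor and SKBR3 has amplified HER2. Copy numbers and receptor levels were not measured here, so these labels could not be checked against the files. All 5 lines carried doxycycline-inducible Cas9 and a pool of sgRNAs, 11 that target a gene and sgNT, which joins 5 non-targeting guides. The lines were mixed, grown with doxycycline, and then exposed for 72 h to DMSO or to 1 compound at 4 doses in steps of 10-fold, from 10 nM to 10 µM or from 1 nM to 1 µM, in 2 replicate wells. As a model the pool has limits that touch each value: the lines shared medium and well, the cells carried sgRNAs and Cas9, and the effect was read as barcode copies of the cells left, which does not separate killed cells from cells that stopped dividing.

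The line of each read was told by an 8 nt barcode on the integrated sgRNA cassette, and these sequences are given because the whole comparison rests on telling BT-20 from its neighbours. They are printed 5′ to 3′, with capitals at the positions at which a barcode differs from that of BT-20.
BT-20: attgtcaa
ZR-75-1: atCACTGG
SKBR3: CGGTGACC
HCC-38: TACAGAGG
MDA-MB-231: TAACAGTT
The barcode of ZR-75-1 differed from that of BT-20 at 6 of 8 bases and those of SKBR3, HCC-38 and MDA-MB-231 at all 8, while 1 mismatch was allowed when reads were assigned.

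The wells used held 30125 to 1919950 reads (median 539618). Over the 10 sgRNAs used, BT-20 had 2538 to 200441 of them (median 61858). In the 96 DMSO wells BT-20 gave 13.6% ± 0.68 of the reads of the 5 lines over these sgRNAs (SD). Its relative cell number there was 101.3% ± 11.03 (SD), from 78.8% to 138.5%. The sgRNAs not counted, sgHSF1 and sgKEAP1, held on average 10.7% and 11.8% of the BT-20 reads in the DMSO wells. Pairs of the BT-20 barcode with the 5 guides that were put only into the standard cells were never made. Their share of BT-20 reads reached at most 3.34% over the wells used (median 0.132%). The AUC values of the 2 BT-20 replicates had a Pearson correlation of 0.956 over the compounds, and the median SD between them was 9.10.

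BT-20 had a higher mean AUC than the average of the other lines with most compounds. Its AUC had a median of 275.9 over the compounds, above ZR-75-1 (255.7), SKBR3 (259.9), HCC-38 (272.4) and MDA-MB-231 (263.1). It was the line with the highest mean AUC for 60 compounds, the second for 63 and the lowest for 4, which were BIX01294 (named after its value was seen), Everolimus, GSK1059615 and Zebularine. HCC-38 was lowest for 28 compounds, MDA-MB-231 for 41, ZR-75-1 for 44 and SKBR3 for 55.

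The difference of BT-20 minus the mean of the other 4 lines had a median of 12.7 AUC units and ran from -30.6 with Everolimus to 103.6 with APY29. It was below 0 for 23 compounds and above 0 for all others, and it had opposite signs in the replicates for 30. limma called 42 compounds higher in BT-20 (24.4%) and 1 lower (0.581%) at an adjusted p under 0.05. With the replicate as a block it called 61 higher (35.5%) and 3 lower (1.74%). Both BT-20 values lay above all 8 values of the other lines for 27 compounds (15.7%) and below them for 1 (0.581%). A difference of 25 or more, taken with no test, was reached by 47 compounds (27.3%) on the higher side and by 1 (0.581%) on the lower side. When each line was first centred on its own median over the compounds, the differences dropped by 14.04 and 15 were called higher and 2 lower, so the calls below include this general shift of the line. When the 4 other lines were taken as 4 samples in place of 8 replicate values, limma called 0 compounds in either direction. At an unadjusted p under 0.05 it had 12 higher and 0 lower. All calls here therefore speak of these 5 lines and their wells, not of breast cancer lines at large.

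**Figure D1:**
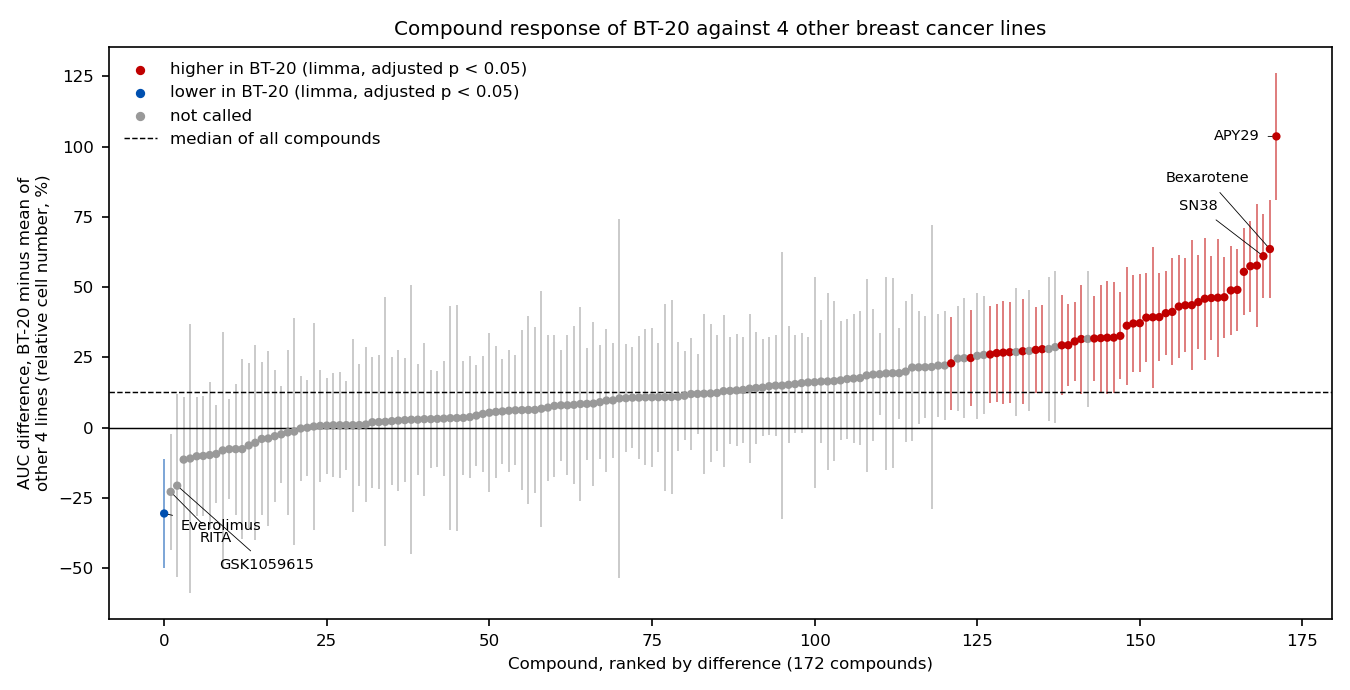
AUC difference of BT-20 minus the mean of the other 4 lines (y axis, % relative cell number summed over doses) for the compounds in ranked order (x axis), with 95% confidence intervals from limma. The differences run from -30.6 with Everolimus, the only compound called lower, to 103.6 with APY29, and the dashed line marks the median of 12.7.

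The difference was larger where the other lines lost more cells. For the 24 compounds with a mean AUC of the other lines under 150, BT-20 was higher with all 24 and the median difference was 39.9. For the 43 compounds between 150 and 250 the median was 26.02, and for the remaining compounds, at 250 or above, it was 8.45. The mean of the other lines enters both quantities, so this is a description. Where list medians and calls are set beside those of all compounds below, this trend is not taken into account. At the highest dose 56 compounds left BT-20 below 50% of its DMSO level, against 60 in HCC-38, 77 in SKBR3, 81 in MDA-MB-231 and 86 in ZR-75-1. Below 20% were 15 compounds in BT-20, against 24 in HCC-38, 27 in ZR-75-1, 39 in SKBR3 and 42 in MDA-MB-231.

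The calls grew in number with dose. limma called 2 compounds higher at the lowest dose (1.16%), 9 at the second (5.23%), 27 at the third (15.7%) and 76 at the highest (44.2%). It called 0, 0, 2 (1.16%) and 1 (0.581%) lower. With the replicate block the counts higher were 3 (1.74%), 15 (8.72%), 45 (26.2%) and 96 (55.8%), and the third and highest dose had 3 (1.74%) and 2 (1.16%) lower. For the doses with 0 lower, 0 and 2 compounds were lower at an unadjusted p under 0.05, and edgeR on the reads called 1 and 2. The 2 compounds called at the lowest dose, 10 nM, were Gemcitabine and Mitoxantrone. At that dose they left under 50% of the cells in all replicate values of the other lines but 1. The 2 lower at the third dose were RITA and Everolimus, and RITA was the one lower at the highest. Some compounds not called on their AUC were called higher at 10 µM, among them Olaparib, Pazopanib and FourHydroxytamoxifen.

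Topoisomerase poisons were the list with the largest median difference. These drugs trap topoisomerase I or II on cut DNA and so leave strand breaks. All 6 members measured were called higher in BT-20, where 24.4% of all compounds were. Their median difference was 46.3 against 12.7 over all compounds. For all 6 both BT-20 AUC values lay above the 8 AUC values of the other lines, as for 15.7% of all compounds. A closer comparison is the 24 compounds with a mean AUC of the other lines under 150, which include these 6. All 24 had a difference above 0, with a median of 39.9, so much of the gap to all compounds was shared by this range. After centring the median of the topoisomerase poisons was 32.3 and 3 of the 6 were called.

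SN38, the active form of the topoisomerase I poison irinotecan, left BT-20 with an AUC of 183.8 and 179.1. The other lines ranged from 104.03 to 139.7 (median 120.3), so the groups did not overlap, and the difference was 60.99 ± 6.62 (SE; limma, adjusted p = 0.000600). The gap opened at 10 nM, with 80.996% and 77.4% of cells in BT-20 and 31.8% to 50.7% in the other lines. Topotecan, another topoisomerase I poison, gave 121.2 and 139.8 in BT-20 and 60.4 to 114.7 in the other lines (median 84.7), a difference of 46.2 ± 9.29 (adjusted p = 0.00737). Here the largest gap was at 100 nM, with 52.7% and 58.9% in BT-20 against 18.4% to 45.8%.

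Of the topoisomerase II poisons, Teniposide gave 166.5 and 174.8 in BT-20 and 89.9 to 131.9 elsewhere (median 115.5), a difference of 57.4 ± 7.15 (limma, adjusted p = 0.000730). Etoposide gave 183.6 and 204.5 against 126.9 to 172.5 (median 141.3), a difference of 45.9 ± 9.59 (adjusted p = 0.00744). For both, ZR-75-1 was the nearest line at 10 µM, where Etoposide left 30.7% and 39.1% of ZR-75-1 and 29.4% and 35.2% of BT-20. Mitoxantrone, an anthracenedione, gave 102.99 and 102.8 against 41.997 to 67.8 (median 58.7), a difference of 46.4 ± 6.34 (adjusted p = 0.00109). At 10 nM of Mitoxantrone 67.1% and 67.8% of BT-20 cells were left, against 29.4% to 47.4%, while at 10 µM all 5 lines were at 4.73% to 10.9%. Doxorubicin, the anthracycline, had the smallest difference of the list, 37.2 ± 7.70 (adjusted p = 0.00744), with 133.3 and 138.8 in BT-20 and 81.8 to 115.8 elsewhere.

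Drugs that damage DNA by other chemistry were not called. None of the 7 DNA alkylators and cisplatin passed in either direction, and their median difference was 2.83. Their median AUC was 293.6 in BT-20 and 292.7 in the other lines, both near the untreated level. With so few cells lost, this list cannot show whether BT-20 responds to such damage as the other lines do. Cisplatin, which crosslinks DNA, gave 292.04 and 292.5 in BT-20 and 286.6 to 309.5 in the other lines, a difference of -2.40 with a 95% interval from -19.7 to 14.9. The highest was Temozolomide, a methylating agent, at 13.2 (limma, adjusted p = 0.360). The 4 PARP and ATM inhibitors, which act on repair and signalling of DNA breaks, had a median difference of 13.01 and none called. Olaparib, a PARP inhibitor, was their highest at 16.1 (adjusted p = 0.148, and 0.0380 with the replicate block), and Veliparib, another, the lowest at -1.41 (adjusted p = 0.966).

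Among the 6 antimetabolites, which starve or poison DNA synthesis, Clofarabine, Gemcitabine and Methotrexate were called higher and none lower, beside 24.4% of all compounds called higher. The median difference was 22.2, and 2 of the 6 were called after centring. Clofarabine, a purine nucleoside analogue, gave 164.4 and 168.4 in BT-20 and 90.7 to 156.3 elsewhere (median 101.7), a difference of 55.4 ± 6.82 (limma, adjusted p = 0.000730). At 100 nM BT-20 stood at 74.2% and 81.3%, ZR-75-1 at 54.3% and 71.1%, and the other 3 lines at 25.6% to 41.6%. Gemcitabine, a cytidine analogue, gave 106.9 and 107.2 in BT-20 and 37.1 to 97.3 elsewhere (median 48.3), a difference of 49.01 ± 6.5003 (adjusted p = 0.00100). Its gap was largest at 10 nM, with 64.6% and 66.3% in BT-20, 43.9% and 50.2% in ZR-75-1 and 19.3% to 28.3% in the others. With both nucleosides ZR-75-1 was the line nearest to BT-20, and BT-20 minus ZR-75-1 did not pass (17.4 ± 8.63, adjusted p = 0.209, and 14.004 ± 8.22, adjusted p = 0.288).

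Methotrexate, which blocks dihydrofolate reductase, split the panel. BT-20 had 191.7 and 204.6, above the means of ZR-75-1 (168.3), HCC-38 (162.6) and SKBR3 (123.6) and below that of MDA-MB-231 (246.7). The difference from the mean was 22.9 ± 7.33 (limma, adjusted p = 0.0490). Against MDA-MB-231 alone it was -48.5 ± 9.27 (adjusted p = 0.00461), and against SKBR3 74.5 ± 9.27 (adjusted p = 0.000514). At 1 µM MDA-MB-231 kept 81.9% and 89.5% of its cells, BT-20 51.98% and 56.9%, and SKBR3 22.6% and 21.5%. Nelarabine, a prodrug of a guanosine analogue, left every line near the untreated level, with 290.2 and 293.4 in BT-20 and a difference of -7.67 (adjusted p = 0.575).

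**Figure D2:**
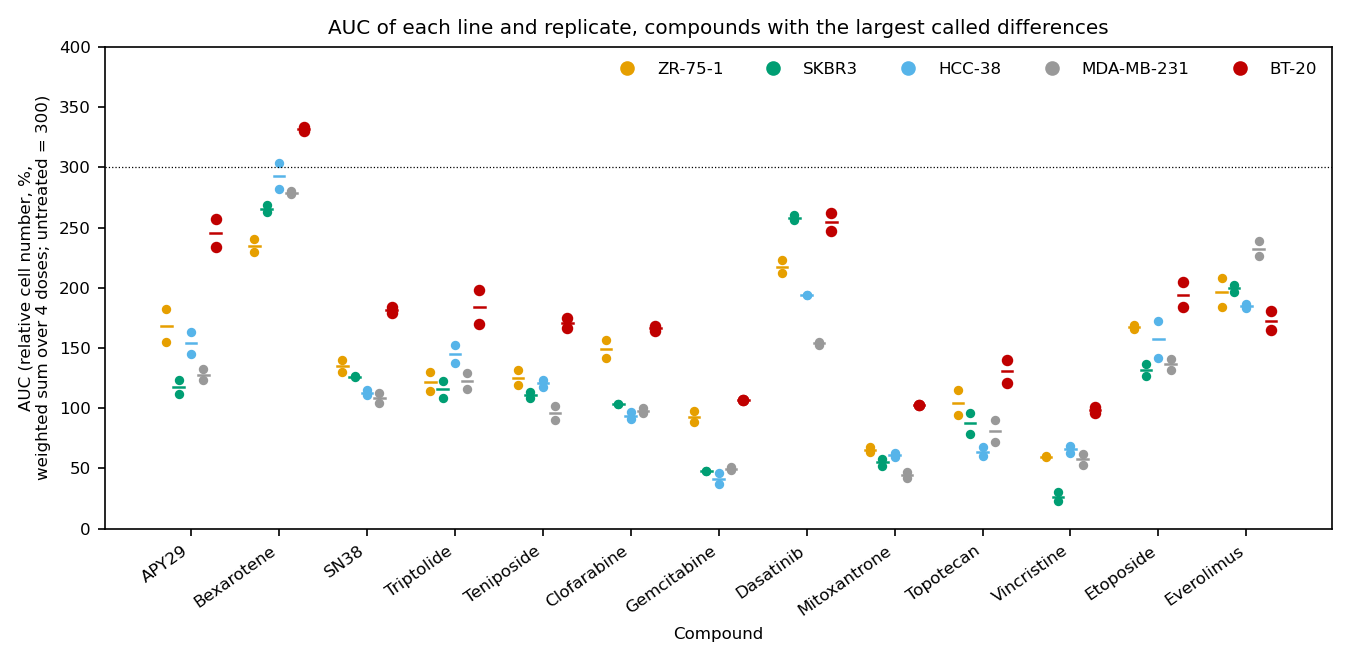
AUC (y axis, % relative cell number summed over 4 doses, untreated = 300) of the 5 lines for the 13 compounds with the largest called differences (x axis). Points are the 2 replicates and bars their mean. Both BT-20 points lie above all points of the other lines with each of the 12 compounds called higher except Dasatinib, and below them with Everolimus.

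APY29 gave the largest difference of the screen. It is a kinase inhibitor that binds IRE1, the sensor of unfolded protein in the endoplasmic reticulum encoded by ERN1. BT-20 had AUC values of 234.1 and 257.2, and the other lines 111.9 to 182.1 (median 138.9), a difference of 103.6 ± 9.97 (limma, adjusted p = 0.000441). At 10 nM the lines overlapped. At 1 µM 76.6% and 84.3% of BT-20 cells were left, while the other lines were at 12.9% to 30.4%, a difference of 58.6 percentage points (adjusted p = 3.9e-05). At 10 µM BT-20 was at 41.9% and 36.27%, above the 5.55% to 26.1% of the others. APY29 was past the threshold against each of the 4 lines, by 77.2 to 128.2. The difference was above 0 with each of the 10 guides, sgERN1 included, from 88.7 to 117.8.

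Bexarotene, an agonist of the retinoid X receptors, left BT-20 above the untreated level and the other lines mostly below it. BT-20 had 333.1 and 330.3 and the other lines 229.8 to 303.9 (median 273.4), a difference of 63.5 ± 7.69 (limma, adjusted p = 0.000730). At 10 µM BT-20 was at 115.7% and 124.9% of DMSO, HCC-38 at 115.3% and 98.6%, and ZR-75-1 at 72.6% and 84.1%. ZR-75-1 was the farthest from BT-20 (96.7 ± 9.73) and HCC-38 the nearest (38.8 ± 9.73), and both passed. The guides spread widely, from 8.11 to 101.6.

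Triptolide, a diterpenoid that stops transcription through the XPB subunit of TFIIH, gave 170.3 and 197.8 in BT-20 and 108.6 to 152.8 elsewhere (median 126.1), a difference of 57.6 ± 9.65 (limma, adjusted p = 0.00298). At 10 nM BT-20 kept 82.03% and 88.1% and the others 49.6% to 63.8%. Another 6 compounds outside the lists were called higher, and are named after their values were seen. They were STF31 (44.7, described as an inhibitor of glucose uptake), PifithrinAlpha (36.2, a p53 inhibitor), Mdivi1 (31.8, sold as a blocker of the fission GTPase DRP1), PF3758309 (30.7, a PAK4 inhibitor), LRRK2IN1 (27.9, an LRRK2 inhibitor) and CHIR99021 (26.5, a GSK3 inhibitor). In all, 9 of the 47 compounds outside the lists were called higher, and the other 33 calls fell in the lists.

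Proteasome inhibitors, which block the degradation of ubiquitin-tagged proteins, were all 4 called higher, beside 24.4% of all compounds, with a median difference of 38.1 (24.04 after centring, 2 of 4 called). By its median AUC in the other lines this list lay under 150. The 24 compounds in that range had a median difference of 39.9, which the median of the proteasome inhibitors did not exceed. MG132 itself lay in the range from 150 to 250, where the median difference was 26.02. Over the 4 compounds the median of BT-20 minus ZR-75-1 was -5.16, against 57.2 for SKBR3, 61.2 for HCC-38 and 39.3 for MDA-MB-231. MLN2238 gave 169.99 and 164.3 in BT-20, a mean of 179.9 in ZR-75-1, and means of 102.9 to 106.1 in the other 3, with a difference of 43.5 ± 7.41 (limma, adjusted p = 0.00312). At 1 µM it left 30.9% and 31.03% in BT-20 and 34.4% and 30.5% in ZR-75-1, but 6.88% to 10.8% in the other lines. BT-20 minus ZR-75-1 was -12.7 ± 9.38 (adjusted p = 0.376). Bortezomib (39.1) and Carfilzomib (37.04), named after their values were seen, and MG132 (26.7) followed MLN2238.

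Of the 6 HSP, p97 and ubiquitin compounds Ganetespib was the one called, at 32.6 ± 6.85 (limma, adjusted p = 0.00744), with a list median of 14.5. Ganetespib inhibits HSP90, and gave 208.4 and 207.2 in BT-20 and 165.6 to 189.9 elsewhere. At 100 nM 43.7% and 38.2% of BT-20 cells were left against 12.2% to 32.9%. NVPAUY922, another HSP90 inhibitor named after its value was seen, differed by 31.6 with an adjusted p of 0.0606 and, with the block, of 0.00166. DBeQ, which inhibits the p97 ATPase, had an AUC difference near 0 (0.884, adjusted p = 0.963). At 10 µM it left 16.1% and 15.4% in BT-20 and 7.43% to 9.57% elsewhere. There DBeQ was called higher (7.49, limma, adjusted p = 0.0150), as 44.2% of all compounds were at the highest dose.

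**Figure D3:**
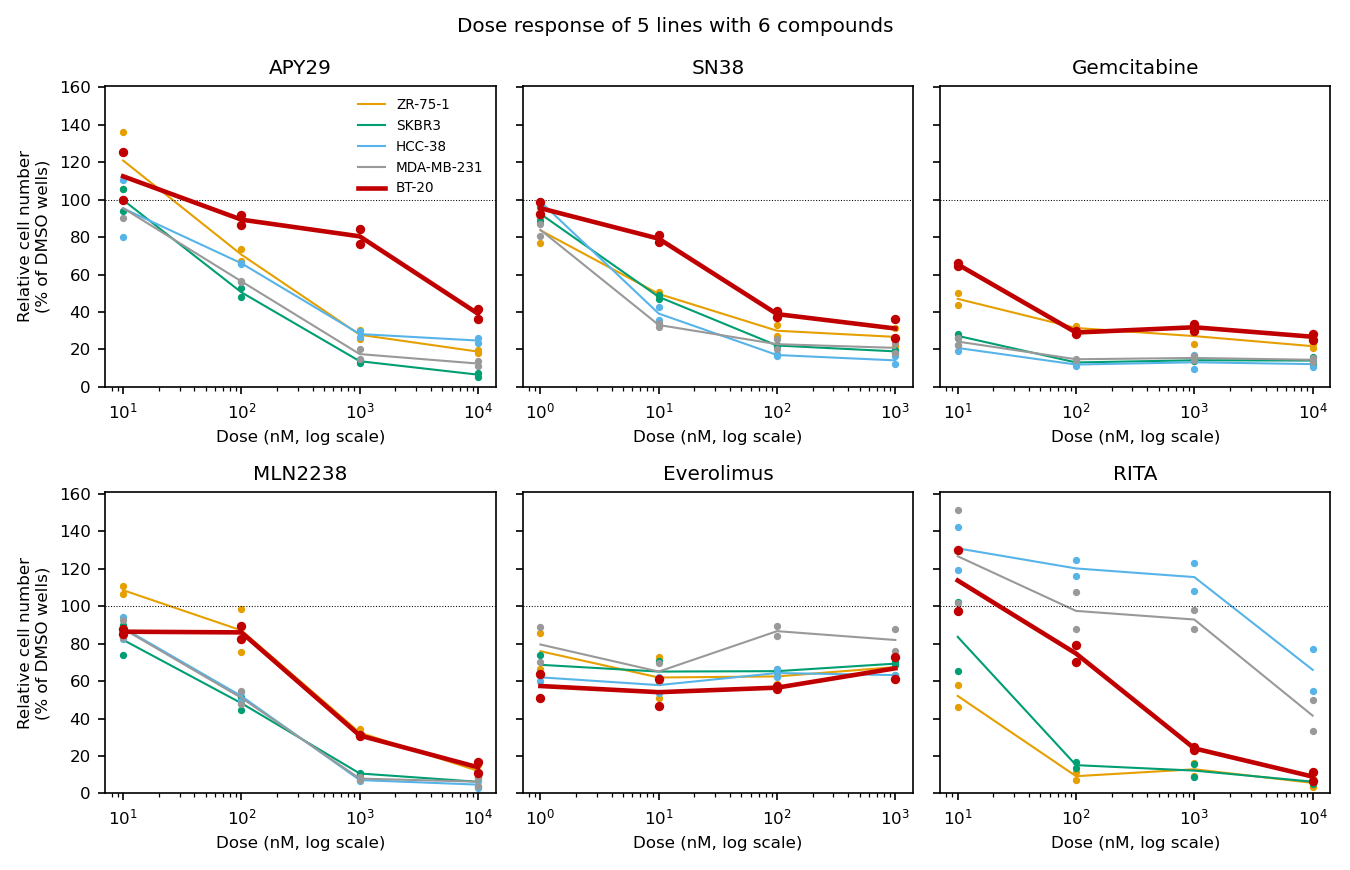
Relative cell number (y axis, % of DMSO wells) against dose (x axis, nM, log scale) for APY29, SN38, Gemcitabine, MLN2238, Everolimus and RITA. Points are the 2 replicates and lines their mean, BT-20 in the thick line. With APY29 at 1000 nM BT-20 is at 76.6% and 84.3% and the other lines at 12.9% to 30.4%.

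Mitotic drugs left few cells in all lines, and 2 of 4 were called higher in BT-20 (1 after centring), beside 24.4% of all compounds. The median AUC of the 4 microtubule and kinesin agents was 95.6 in BT-20 and 66.3 in the others, with a median difference of 22.1, and none was called lower. The 24 compounds with a mean AUC of the other lines under 150 had a larger median difference, 39.9. Vincristine, which blocks tubulin assembly, gave 95.9 and 101.02 in BT-20 and 22.9 to 68.8 elsewhere (median 59.7), a difference of 46.1 ± 6.60 (limma, adjusted p = 0.00129). At 10 nM BT-20 (28.9% and 26.8%) lay inside the range of the others (9.24% to 38.6%). At 10 µM BT-20 was at 43.1% and 35.6% and the others at 6.60% to 24.1%. Paclitaxel, which stabilises microtubules and is named after its value was seen, differed by 24.8 (adjusted p = 0.0390). SB743921, an inhibitor of the kinesin KSP, differed by 11.99 (adjusted p = 0.234), and at 10 µM all lines were at 3.16% to 5.84%.

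Of the 8 cell cycle kinase inhibitors 5 were called higher (24.4% of all compounds were) and none lower, with a median difference of 29.4 (15.4 after centring, 1 called). KW2449, which inhibits FLT3 and Aurora kinases, was the highest: BT-20 had 291.7 and 267.6, and the others 205.6 to 263.9 (median 238.8), a difference of 41.2 ± 8.43 (limma, adjusted p = 0.00740). At 10 µM 77.9% and 77.7% of BT-20 cells were left, near SKBR3 (72.9% and 73.5%) and above the 34.5% to 53.9% of the other 3. Rigosertib (40.7, a PLK1 and tubulin agent), Alisertib (32.02, an Aurora A inhibitor), GSK461364 (31.7, a PLK1 inhibitor) and SNS032 (27.2, a CDK inhibitor), named after their values were seen, were also called. Palbociclib, the CDK4 and CDK6 inhibitor, was the lowest at 5.76 (adjusted p = 0.722), with AUC values of 154.8 and 147.4 in BT-20 and 121.8 to 177.6 elsewhere. At 10 µM alone it was called higher (13.8, limma, adjusted p = 0.00433), with 45.4% and 46.7% in BT-20 and 21.4% to 42.9% elsewhere.

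The 6 EGFR and HER2 inhibitors, directed at the receptor for which BT-20 is known and at its relative, had a median difference of 13.5, beside 12.7 over all compounds. Of the 6, 1 was called, in the higher direction, and 3 with the replicate block. Lapatinib, which inhibits both receptors, gave 255.8 and 259.3 in BT-20 and 182.7 to 260.01 elsewhere (median 238.6), a difference of 27.7 ± 6.77 (limma, adjusted p = 0.0174). At 10 µM of Lapatinib BT-20 was at 63.03% and 57.3%, HCC-38 at 59.5% and 57.4%, and the other 3 at 14.99% to 40.2%.

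The covalent inhibitors Afatinib, Neratinib and Canertinib differed by 25.5 (limma, adjusted p = 0.0924, and 0.0211 with the block), 22.1 (0.0806, and 0.0307 with the block) and 2.67 (0.907). By dose, Canertinib differed by -9.64 at 10 nM and -9.76 at 100 nM, neither of which passed. At 10 µM it differed by 16.5 (limma, adjusted p = 0.00475). Afatinib differed by 15.05 at 1 µM (0.0295) and 8.003 at 10 µM (0.0423), and Neratinib by 11.1 at 10 µM (0.0349). SKBR3, the HER2-amplified line, was the farthest below. BT-20 minus SKBR3 was 112.97 ± 12.5 with Afatinib (adjusted p = 0.000351), 98.98 ± 10.2 with Neratinib (0.000260), 72.3 ± 8.57 with Lapatinib (0.000406) and 42.9 ± 12.4 with Canertinib (0.0381). At 100 nM Afatinib left 82.3% and 76.4% in BT-20, 35.2% and 35.9% in SKBR3, and 92.2% and 110.4% in HCC-38. Against HCC-38 and MDA-MB-231, the other triple-negative lines, the medians over the 6 compounds were -14.4 and -6.60.

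The EGFR inhibitors Gefitinib and Erlotinib differed from the mean by -3.05 (limma, adjusted p = 0.901) and 4.86 (0.812). Gefitinib gave 256.2 and 256.5 in BT-20 and the means were 218.9 for SKBR3, 229.5 for ZR-75-1, 287.8 for MDA-MB-231 and 301.5 for HCC-38, so BT-20 lay between the other lines. Against HCC-38 alone the difference was -45.1 ± 13.1 (adjusted p = 0.0475). Against MDA-MB-231 it was -31.4 (adjusted p = 0.131, and 0.0325 with the block). At 10 µM of Gefitinib BT-20 stood at 74.2% and 71.9%, SKBR3 at 31.1% and 32.95%, and HCC-38 at 90.8% and 90.2%. From the mean of the other lines Gefitinib differed there by 8.16 (limma, adjusted p = 0.0209) and Erlotinib by 5.14 (0.430).

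**Figure D4:**
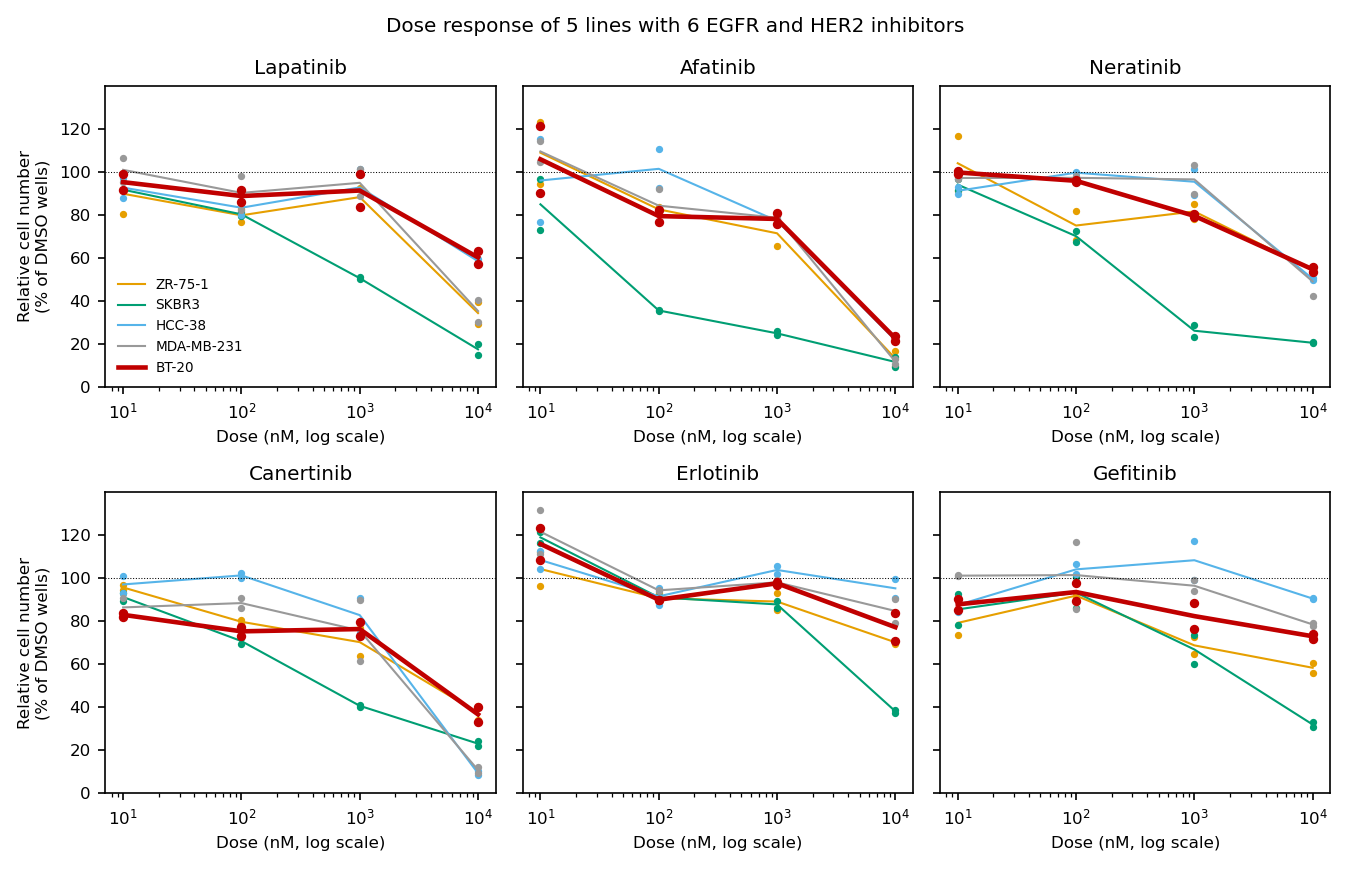
Relative cell number (y axis, % of DMSO wells) against dose (x axis, nM, log scale) for the 6 EGFR and HER2 inhibitors in the 5 lines. Points are the 2 replicates and lines their mean. SKBR3 has the lowest mean at 1 µM with all 6 compounds, ZR-75-1 being close to it with Gefitinib and Erlotinib, and BT-20 (thick line) does not have the lowest mean at 1 µM or 10 µM with any of them.

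Inhibitors of other receptor and cytoplasmic kinases had list medians from 7.05 to 29.3. All 3 IGF1R inhibitors were called higher, beside 24.4% of all compounds: BMS536924 at 43.1 ± 8.07 (limma, adjusted p = 0.00501), Linsitinib, named after its value was seen, at 29.3 and BMS754807 at 26.8. After centring none of the 3 was called. At 10 µM BMS536924 left 63.6% and 76.2% in BT-20 and 24.05% to 59.5% elsewhere. Of the 6 MET, ALK and FGFR inhibitors 3 were called higher (median 28.1), beside 24.4% of all compounds, and 1 after centring. Crizotinib, which inhibits MET and ALK, gave 248.8 and 248.3 in BT-20 and 186.9 to 235.6 elsewhere, a difference of 39.3 ± 6.93 (adjusted p = 0.00370). The FGFR inhibitors BGJ398 and AZD4547, the latter named after its value was seen, differed by 31.5 (adjusted p = 0.0268) and 29.3 (0.0266). BT-20 minus HCC-38 was 74.1 ± 10.9 with BGJ398 (adjusted p = 0.00134), and against the other 3 lines the differences of 11.97 to 21.9 did not pass.

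Dasatinib, an inhibitor of SRC and ABL, was the 1 of the 6 SRC, ABL, KIT and FAK inhibitors called (48.8 ± 7.04, limma, adjusted p = 0.00129, list median 17.1). BT-20 had 247.1 and 262.4, SKBR3 a mean of 258.4, ZR-75-1 of 217.5, HCC-38 of 194.1 and MDA-MB-231 of 153.8. BT-20 and SKBR3 overlapped (-3.59 ± 8.91, adjusted p = 0.804), while BT-20 minus MDA-MB-231 was 100.9 ± 8.91 (adjusted p = 0.000212). At 1 µM BT-20 was at 90.5% and 96.5%, SKBR3 at 103.1% and 98.6%, and the other 3 lines at 46.7% to 68.1%. The 6 BRAF and MEK inhibitors had a median of 7.05 with Trametinib, a MEK inhibitor, called (26.02, adjusted p = 0.0359). With Trametinib BT-20 was above MDA-MB-231 (65.4, adjusted p = 0.00119) and ZR-75-1 (41.8, adjusted p = 0.0152), and its differences from SKBR3 (-5.44) and HCC-38 (2.27) did not pass. The lowest of that list was GDC0879, a BRAF inhibitor, at -10.2 (adjusted p = 0.532). None of the 10 VEGFR and multikinase inhibitors were called, from Sorafenib at -11.0 (adjusted p = 0.815) to Pazopanib at 24.7 (adjusted p = 0.0915, and 0.0152 with the block).

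The pathway of PI3K, AKT and mTOR, which carries growth factor signals to protein synthesis, held the lowest difference. The 6 AKT and mTOR inhibitors had the lowest median of the 21 lists (1.41), with 1 called lower and 1 higher, and the 9 PI3K inhibitors had a median of 6.31 with none called. Everolimus, a rapalog that inhibits mTOR complex 1, was the only compound called lower. BT-20 had 164.9 and 180.5, and the other lines 183.3 to 238.5 (median 199.4), so the groups did not overlap although they came within a few units. The difference was -30.6 ± 8.50 (limma, adjusted p = 0.0289, 95% interval from -49.8 to -11.3), and it was below 0 with all 10 guides. Against MDA-MB-231 it was -59.9 ± 10.8 (adjusted p = 0.00350), and against ZR-75-1, SKBR3 and HCC-38 it was -23.5, -26.8 and -12.1, none of which passed. Without MDA-MB-231 among the other lines limma called 0 compounds lower (1 at an unadjusted p under 0.05). The curve was flat, with BT-20 at 63.7% and 51.03% at 1 nM and 60.98% and 72.7% at 1 µM, and at 100 nM 55.6% and 57.4% of BT-20 cells stood against 58.7% to 89.5%.

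GSK1059615, a PI3K inhibitor, was the lowest of its list at -20.6 ± 14.4 (limma, adjusted p = 0.395), with BT-20 at 212.2 and 244.8 and the others at 228.9 to 280.9. With the block it was called (adjusted p = 0.0278). AZD5363, an AKT inhibitor named after its value was seen, differed from the mean by -9.38 (adjusted p = 0.483). It was below MDA-MB-231 (-47.5 ± 9.83, adjusted p = 0.00638) and above SKBR3 (44.4 ± 9.83, adjusted p = 0.010003). AT7867, also an AKT inhibitor, was called higher, with 232.6 and 263.2 in BT-20 and 173.7 to 236.4 elsewhere, a difference of 43.6 ± 10.2 (adjusted p = 0.0139).

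RITA, a thiophene compound known as an activator of p53, placed BT-20 between lines that lay far apart. BT-20 had 156.6 and 163.7. The means of ZR-75-1 (50.9) and SKBR3 (72.2) lay far below it and those of HCC-38 (334.3) and MDA-MB-231 (274.6) far above it. The difference from the mean of the 4 was -22.9 ± 9.11 (limma, adjusted p = 0.102, and 0.0390 with the block). Line by line it was 109.2 ± 11.5 against ZR-75-1 (adjusted p = 0.000472), 87.9 against SKBR3 (0.000684), -174.2 against HCC-38 (1.8e-05) and -114.4 against MDA-MB-231 (0.000321). At 100 nM BT-20 kept 79.1% and 70.3%, ZR-75-1 and SKBR3 7.01% to 16.5%, and HCC-38 and MDA-MB-231 87.6% to 124.5%. At 1 µM BT-20 was at 23.2% and 24.9%, while HCC-38 and MDA-MB-231 were still at 87.8% to 123.2%.

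The remaining lists lay below the median of all compounds. The 11 epigenetic compounds had a median of 10.7 with 1 called, Decitabine, an inhibitor of DNA methyltransferases, at 39.3 ± 11.1 (limma, adjusted p = 0.0302). At 1 µM Decitabine left 76.1% and 75.2% in BT-20 and 37.7% to 66.3% elsewhere. The lowest of that list was Zebularine, which also inhibits DNA methylation, at -9.76 (adjusted p = 0.646). The 3 statins, which inhibit HMG-CoA reductase, had a median of 11.9, and Fluvastatin was called (31.99, adjusted p = 0.0289). Fluvastatin gave 261.2 and 276.8 in BT-20 and a mean of 183.9 in MDA-MB-231, a difference of 85.1 ± 11.3 (adjusted p = 0.000868). BT-20 minus HCC-38 was -18.5 with the same drug (adjusted p = 0.344).

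The 6 estrogen receptor and steroid synthesis blockers had a median of 7.62 and none called. Fulvestrant, which degrades the estrogen receptor, gave 270.6 and 270.8 in BT-20 and a mean of 189.3 in ZR-75-1, the line with the receptor, and BT-20 minus ZR-75-1 was 81.4 ± 9.69 (limma, adjusted p = 0.000844). In SKBR3, MDA-MB-231 and HCC-38 the means were 253.8, 281.4 and 296.4. FourHydroxytamoxifen, a modulator of the same receptor, was the highest of the list at 21.4 (adjusted p = 0.117, and 0.0211 with the block), and the aromatase inhibitor Exemestane the lowest at -3.86 (0.906). The 3 BCL-2 family inhibitors, which free the mitochondrial death program, had a median of 3.01 and ran from ABT737 at -0.305 (0.982) to Gossypol at 17.3 (0.250). At 10 µM Gossypol left 47.2% and 47.4% in BT-20 and 23.1% to 38.99% elsewhere. At that dose it was called higher (18.7, limma, adjusted p = 0.00422), while ABT737 was not (2.66, 0.702). The 5 electrophiles and NF-kB compounds had a median of 4.27 and ran from TPCA1, an IKK inhibitor, at 0.729 (0.963) to Curcumin at 17.6 (0.297, and 0.0390 with the block).

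**Figure D5:**
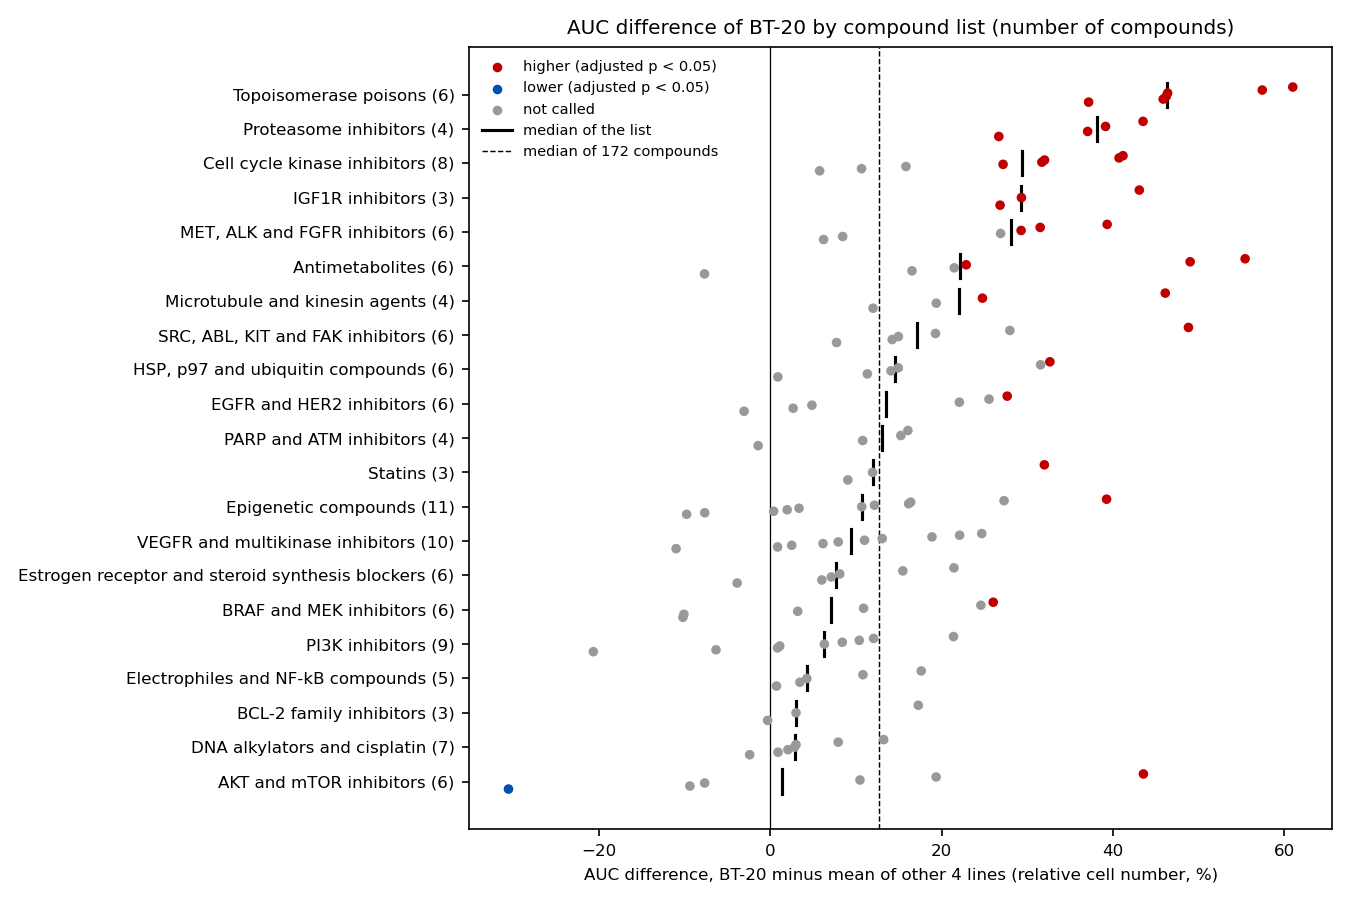
AUC difference of BT-20 minus the mean of the other 4 lines (x axis, % relative cell number summed over doses) for the compounds of 21 lists (y axis, number of compounds in brackets). Each point is a compound, short bars are list medians and the dashed line is the median of all compounds (12.7), and the medians run from 1.41 for AKT and mTOR inhibitors to 46.3 for topoisomerase poisons.

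Against single lines the balance was also toward higher values in BT-20. The 4 comparisons share the BT-20 values, so they are given side by side. limma called 30 compounds higher against ZR-75-1 (17.4%), 34 against SKBR3 (19.8%), 25 against HCC-38 (14.5%) and 39 against MDA-MB-231 (22.7%). It called 0, 0, 2 (1.16%) and 4 (2.33%) lower, and for the first pair 7 and 1 were lower at an unadjusted p under 0.05. With the block, which takes out what the lines of a well share, 55 (32%), 64 (37.2%), 43 (25%) and 50 (29.1%) were higher and 8 (4.65%), 2 (1.16%), 9 (5.23%) and 10 (5.81%) lower. Over the compounds the median difference was 15.2 against ZR-75-1, 19.7 against SKBR3, 6.49 against HCC-38 and 12.01 against MDA-MB-231. The highest 3 were RITA, Bexarotene and Fulvestrant for ZR-75-1, APY29, Afatinib and Neratinib for SKBR3, APY29, BGJ398 and Clofarabine for HCC-38, and APY29, Dasatinib and Fluvastatin for MDA-MB-231. As a description over compounds that share wells, the mean AUC of BT-20 had a Pearson correlation of 0.95 with SKBR3, 0.932 with ZR-75-1, 0.924 with MDA-MB-231 and 0.918 with HCC-38.

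The sgRNAs of the pool targeted mainly genes of stress responses. Guides of a well share the medium and the call was made on their mean, so their signs are given as a description. Of the 42 compounds called higher, 40 had a difference above 0 with each of the 10 guides, and over all compounds 53 did. The median difference over compounds ran among these guides from 3.02 with sgATF3 to 22.7 with sgNFE2L2, and was 16.4 with sgNT. With sgNT alone 3 compounds were called higher (APY29, Bexarotene and Teniposide) and limma called 0 lower, also at an unadjusted p under 0.05 (0). sgHSF1 and sgKEAP1, which were left out of the mean in all lines, had medians of 7.94 and -0.316.

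Close analogues were set side by side in BT-20 alone, as 4 pairs with matched doses, chosen with the data known. Teniposide and Etoposide differ in the group on the sugar acetal, thienyl in the first and methyl in the second. Their AUC differed by -23.5 (95% interval from -48.8 to 1.87, from an SD of 12.8 pooled over all BT-20 replicate pairs). Gefitinib and Erlotinib, both anilinoquinazolines with different ring substituents, differed by -27.8 (-53.2 to -2.51). The lowest dose, 10 nM, entered this difference, with 90.4% and 85.3% for Gefitinib and 123.4% and 108.4% for Erlotinib. In the same wells the other lines had 73.4% to 101.4% with Gefitinib and 96.3% to 131.9% with Erlotinib. Whether this part belongs to the wells or to the drugs was not tested. Simvastatin has a methyl group more than Lovastatin on its ester side chain, and Lovastatin minus Simvastatin was -7.70 (-33.03 to 17.6). Cyclophosphamide and Ifosfamide are isomers that place a chloroethyl group differently, and they differed by 1.54 (-23.8 to 26.9). With 2 replicate AUC values a compound the exact permutation test cannot go below p = 0.333 (two-sided, adjusted over the 4 pairs 0.667, 0.667, 0.889 and 1), so none of the pairs could pass.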

How the data were processed

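Pools of 5 breast cancer lines were read by sequencing of barcodes in 1536 wells (series-wide 1440 compound and 96 DMSO wells). The authors deposited, per well, raw read counts for each pair of line and sgRNA barcode (bcl2fastq, no genome alignment), and relative cell numbers, for which a count was turned into cells on a line through 5 spike-in standards of the well and the ratio to the DMSO median was given in percent. Recomputing the 83520 deposited ratios from the counts gave a largest log2 deviation of 5.3e-05.

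Here the ratios of 10 sgRNAs (sgHSF1 and sgKEAP1 left out in all lines) were averaged per line, compound, dose and well and summed to an AUC. limma 3.58.1 (R 4.3.3) was fitted to the AUC of 172 compounds with 5 lines in 2 replicates as columns, with moderated variance (prior df 4.02) and Benjamini-Hochberg adjustment over all 172, and also per dose level. Groups came from the sample titles. No pseudocount or filter on low values was used, and 0 columns of per-sample values stayed unused. Doses were taken from the concentration column. edgeR 4.0.16 was run on the counts as an alternative at each dose. Other alternatives were the replicate block, a variance trend, log2, other sgRNA summaries, capping, centring, cells or reads recomputed from counts, and leaving out lines or replicates.

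Replicate numbers pair the lines because the lines of a replicate share wells. As a check, the replicate deviations of BT-20 correlated with those of the other lines at 0.489 to 0.724 over compounds. The study's methods call the replicates separate biological samples, and p-values measure the spread between these wells. The plates of the compound wells are not labelled, and all lines of a well share its plate.

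Members and lists (21 lists, 125 compounds) were chosen with earlier results of these data known. Compounds named are the 12 called lowest and 12 highest (1 was lower), all EGFR and HER2 inhibitors, the lowest and highest of each list, and the 3 lowest and highest called against each line, 58 in all, with other names marked as chosen later.

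On simulated data with 40 of 172 compounds changed, limma recovered 0% of changes of 20 AUC units and 75% of changes of 40, with 6.25% of 32 calls false. The depth of the wells is given with the results, and intervals cover the wells measured.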

Additional observations from a re-analysis of the deposited data

Results flagged for a closer look

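Among the 6 DMSO wells of Plate 6, one well had a relative BT-20 cell number of 116.8%, while the other 5 lay between 92.4% and 101.2%. Its gap to the next well was 0.64 of the range of the plate, above the limit of 0.625 for 6 wells. It was the only one of 16 plates with such a gap, and chance gives about 1 in 20. The plate means of BT-20 ran from 93.9% to 111.5%.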

How the results depend on the processing

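The lines of a replicate share wells, which pairs them. With the replicate number as a block 3 compounds were called lower and 61 higher than the mean of the other lines in place of 1 and 42. The block gave 8 lower and 55 higher against ZR-75-1, 2 and 64 against SKBR3, 9 and 43 against HCC-38, and 10 and 50 against MDA-MB-231. By dose it called 8.72% higher at the second, 26.2% at the third and 1.16% lower at the highest dose. Of the 58 named compounds 8 gained a call with the block and 0 lost one, and the rest were called alike.

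All 42 compounds called higher were also called with the block, with values capped at 100 (72 higher) and with reads without standards (88 higher, 2 lower). Centring each line on its median left 15 higher, all among the 42, and gave 2 lower, with 21 at least 25 higher and 5 at least 25 lower. By line it gave 10 lower and 10 higher against ZR-75-1, 3 and 22 against SKBR3, and 7 lower against MDA-MB-231. With sgNT only, 3 were higher and 0 lower, with 3 at least 25 lower. By line sgNT only gave 3 higher against ZR-75-1, 0 against SKBR3, 0 against HCC-38 (1 lower) and 1 against MDA-MB-231 (1 lower). Line means as samples gave 0 in both directions. All 12 sgRNAs gave 2 lower, and 2 at least 25 lower. Leaving out ZR-75-1 gave 2 lower and 2 at least 25 lower, leaving out SKBR3 gave 3 and 3, and leaving out MDA-MB-231 gave 0 and 0. Without a replicate, a value with no test, 44 to 55 were at least 25 higher and 1 to 1 at least 25 lower.

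edgeR on the reads called 0.581% lower and 6.4% higher at the lowest dose, 1.16% and 21.5% at the second, 37.8% higher at the third and 67.4% higher at the highest. On the log2 scale 2.91% were higher at the lowest and 12.8% at the second dose, and 0.581% lower at the third.

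Of the 58 named compounds 28 were called in the main fit and so had a call to lose. All 28 lost it with line means, 25 of the 28 with sgNT only and 15 of the 28 with centring. Further losses were 6 without MDA-MB-231, 5 with all 12 sgRNAs, 4 without ZR-75-1, 3 without SKBR3 and 3 without HCC-38. Cells summed over sgRNAs lost 2 and the median over sgRNAs 1. Reads without standards gained 13 and capping 7. None of the results changed sign while called. Asking for 1000 reads or more on the standards gave the same counts, median difference and median SE as the main fit. It appears to have removed no compound tested, so it could not change a call. The causes were not tested. With 2 replicate AUC values a line, differences under about 25 AUC units mostly missed the threshold, and reads of the same well are not independent between lines.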

Other observations

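Ruxolitinib and STF083010 were left out of the comparison. The study had set both aside for very high AUC values, and both shared a plate position. In BT-20 their AUC values were 258.97 and 285.7, and 300.8 and 320.6. In MDA-MB-231 they were 373.6 and 396.3 with Ruxolitinib and 394.01 and 365.1 with STF083010. In ZR-75-1, SKBR3 and HCC-38 they ran from 260.9 to 298.8 with Ruxolitinib, and with STF083010 none was above 310.6. Ruxolitinib inhibits the JAK kinases, and STF083010 inhibits the RNase of IRE1, the protein that APY29 binds. With 2 replicate AUC values a line these were not tested.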
